A study of Mus musculus with 12 samples.

Results

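Cholesterol synthesis genes and other targets of SREBP2 were followed in mouse liver as a set of 28 genes out of 34741 on the array. They were chosen by name for their known function in the pathway and by no rule on their values, but with earlier results of these data known. Of these, 8 encode steps from acetyl-CoA through mevalonate to the isoprenoid diphosphates, 12 encode steps from squalene to cholesterol, 4 are SREBP2 (Srebf2) and the proteins that hold or release it, and 4 act in sterol uptake and transport. A total of 27 of the 28 were well above background on all 12 arrays and were among the 21186 genes tested. The remaining gene, Npc1l1, the sterol importer best known from the gut, was well above background on 1 of 12 arrays and was not tested. All gene names were those of the array except Msmo1, which the array lists under the older symbol Sc4mol.

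RNA from the livers of male mice of the outbred ICR stock was hybridised to 12 one-colour arrays, 1 for each of 6 treatments at day 2 and at day 7. The mice were bought at 5 weeks of age and adapted for 1 week, and their genotype is labelled wild type, or control and G0s2 knockdown for the siRNA mice. The treatments were water (vehicle), the liver carcinogen diethylnitrosamine (DEN) given in drinking water (80 mg/L, near 400 µg daily), the vitamin A acid all-trans-retinoic acid (ATRA) given likewise (30 mg/L, near 150 µg daily), ATRA+DEN, and 1.6 nmol of a control siRNA or of an siRNA against G0s2, an inhibitor of triglyceride lipolysis. The siRNAs were injected into the vein with a lipid carrier the day before DEN was begun in the study, and the labels do not say whether the siRNA mice themselves drank DEN. The solvents of ATRA were ethanol and dimethyl sulfoxide, and whether the vehicle water held these solvents is not given. Whether an array holds 1 animal or a pool is not given either, nor is the hour of collection. For 3 arrays of day 7 the treatment field disagrees with the title and source name, and titles were used. In that field, the DEN title goes with ATRA, the ATRA+DEN title with DEN and the ATRA title with ATRA+DEN.

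Levels are log2 intensities minus the 75th percentile of the array, so 0 is the brightness of a probe at that percentile, and levels of different probes are not compared with each other. The probes of the genes described in most detail lie, in build mm9 as the array files give it, at chr15:59162688-59162747 for Sqle, chr5:4081471-4081530 for Cyp51, chr8:124957750-124957809 for Mvd, chrX:70202803-70202862 for Nsdhl, chr3:88897549-88897608 for Fdps, chr8:67196982-67197041 for Msmo1, chr13_random:114793-114852 for Hmgcs1, chr5:28404246-28404305 for Insig1 and chr15:82034765-82034824 for Srebf2. Which exon or untranslated region each probe falls in was not analysed here. The arrays lie on 4 slides. Slide 1 holds the day-2 arrays without siRNA, slide 2 the day-2 siRNA arrays, and slide 3 those of vehicle and DEN at day 7. On slide 4 are ATRA, ATRA+DEN and both siRNAs at day 7. The 75th percentile of intensity was between 143.5 and 240.6 units, and the share of probes well above background ran from 41.0% to 50.7%. All 10 hepatocyte markers were well above background on every array. With 1 array per group no group has a spread of its own, so differences between single arrays carry no test. Errors come from effects averaged over pairs of arrays. P-values weigh an effect against the spread between pairs, which the fit draws toward that of other genes. DEN and G0s2 siRNA effects came from 1 fit, in which the 4 DEN pairs and the 2 siRNA pairs shared an estimate of spread. The errors for G0s2 siRNA thus do not measure the spread of its own 2 pairs alone. The targeted gene checks the siRNA labels: G0s2 was at 3.64 with control siRNA and 1.8 with G0s2 siRNA at day 2, and at 3.22 and 2.04 at day 7. Its level was lower still, 0.27, in ATRA+DEN at day 2, where vehicle had 4.14, DEN 3.16 and ATRA 2.94. Without siRNA at day 7, G0s2 was at 3.73 in vehicle, 4.01 in ATRA, 3.21 in DEN and 2.63 in ATRA+DEN.

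As background, the liver makes cholesterol from acetyl-CoA, and nearly every enzyme on the way is under the transcription factor SREBP2. SREBP2 is made as a membrane protein of the endoplasmic reticulum. When membrane cholesterol is low its escort Scap carries it to the Golgi, where proteases free the active part, and when cholesterol is high the Insig proteins keep Scap and SREBP2 in place. Active SREBP2 binds sterol regulatory elements, usually next to sites for the CCAAT-binding factor NF-Y or for Sp1, and so the pathway's genes tend to be switched on and off together. The related SREBP1 acts mostly on fatty acid synthesis.

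RefSeq promoter entries (build GRCm38.p6) matched 23 of the 28 genes by symbol, and Fdft1, Fdps, Npc1, Sqle and Stard4 had no match. The 250 bases upstream of the start site are shown for the 5 genes with the widest range of levels among those with an entry and well above background on every array. They are read 5′ to 3′ on the strand of the gene, and capitals mark CCAAT boxes (CCAAT or its reverse ATTGG) and the 1 sterol regulatory element found. Cyp51 is at chr5:4104698-4104947 on the minus strand, Mvd at chr8:122443423-122443672 (minus), Nsdhl at chrX:72918271-72918520 (plus), Msmo1 at chr8:64733579-64733828 (minus) and Hmgcs1 at chr13:119690101-119690350 (plus).
Cyp51: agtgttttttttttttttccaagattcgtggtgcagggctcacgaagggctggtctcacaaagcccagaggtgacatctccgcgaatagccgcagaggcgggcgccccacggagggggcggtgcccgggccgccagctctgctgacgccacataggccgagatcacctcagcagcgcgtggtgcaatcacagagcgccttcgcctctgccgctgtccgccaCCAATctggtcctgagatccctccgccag
Mvd: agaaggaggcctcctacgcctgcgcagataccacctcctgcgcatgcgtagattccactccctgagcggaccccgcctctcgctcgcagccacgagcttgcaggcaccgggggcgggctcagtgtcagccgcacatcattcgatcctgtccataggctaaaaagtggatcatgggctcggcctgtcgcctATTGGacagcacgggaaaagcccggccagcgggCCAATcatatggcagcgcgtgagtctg
Nsdhl: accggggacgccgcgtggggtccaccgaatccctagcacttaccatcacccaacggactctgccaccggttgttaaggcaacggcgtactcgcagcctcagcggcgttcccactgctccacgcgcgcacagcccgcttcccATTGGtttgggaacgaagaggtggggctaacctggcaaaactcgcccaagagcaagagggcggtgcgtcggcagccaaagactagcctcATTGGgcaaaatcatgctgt
Msmo1: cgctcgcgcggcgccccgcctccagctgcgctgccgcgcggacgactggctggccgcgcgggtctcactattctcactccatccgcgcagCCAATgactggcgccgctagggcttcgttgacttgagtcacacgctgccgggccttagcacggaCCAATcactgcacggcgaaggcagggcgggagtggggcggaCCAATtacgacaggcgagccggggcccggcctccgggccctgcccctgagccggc
Hmgcs1: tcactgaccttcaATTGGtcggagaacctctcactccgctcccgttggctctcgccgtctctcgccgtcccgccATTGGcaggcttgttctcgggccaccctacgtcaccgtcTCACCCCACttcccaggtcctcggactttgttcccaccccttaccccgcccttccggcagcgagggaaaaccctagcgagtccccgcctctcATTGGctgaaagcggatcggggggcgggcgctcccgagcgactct
A set of 3 motifs was searched on both strands of these windows, and no match of one overlapped a match of another. CCAAT (or ATTGG) was found upstream of 21 of 23 genes (91.3%), the exceptions being Acat2 and Scap, and upstream of 39.8% of the 11656 tested genes with an entry. The GC box GGGCGG (or CCGCCC) was found upstream of 20 of 23 (86.96%), all but Ggps1, Npc1l1 and Pmvk, against 57.5% of tested genes. Over all 32851 windows of this length the shares were 33.9% for CCAAT and 32.7% for GGGCGG. The strict sterol regulatory element TCACNCCAC (or GTGGNGTGA) was found upstream of 1 of 23 genes, Hmgcs1, at -137 to -129 from the start. It was found upstream of 1.25% of tested genes and in 1.05% of all windows. A match is a match of letters, and the lack of one says only that these letters are not in this window.

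**Figure D1:**
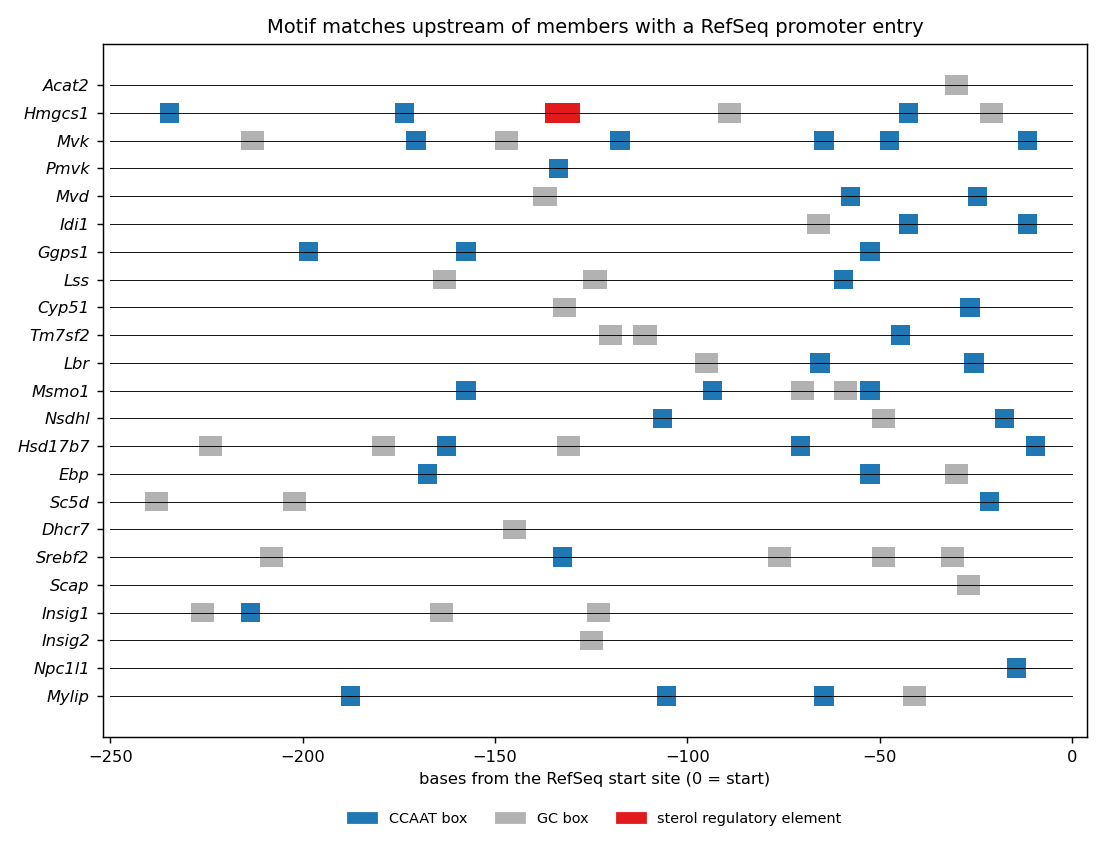
Motif matches in the 250 bases upstream of the start site of the 23 genes with a RefSeq entry, with the distance from the start in bases on the horizontal axis and 1 line a gene. Blue bars are CCAAT boxes (19 of 23 drawn lines have one), grey bars GC boxes (20 of 23) and the red bar the sterol regulatory element of Hmgcs1. For a gene with several entries only 1 is drawn, the one with the lowest coordinate among those with a match, so the drawn count for CCAAT is below the 21 genes found over all entries.

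Levels of the set varied more between arrays than those of most genes. The median range over the 12 arrays was 2.29 (log2) for the 27 genes and 1.38 for all genes tested, and it was 2.86 for the mevalonate steps, 2.50 for the sterol steps, 2.29 for 3 uptake and transport genes and 1.48 for Srebf2, Scap, Insig1 and Insig2. Relative to each gene's own mean over the 12 arrays, the median of the set was lowest in control siRNA at day 7 (-0.78), ATRA+DEN at day 2 (-0.65) and G0s2 siRNA at day 7 (-0.64). It was highest in ATRA+DEN (0.85) and ATRA (0.78) at day 7. In the other 7 arrays it lay between -0.12 and 0.26. ATRA+DEN at day 2 held the lowest level of 12 of the 27 genes, as it did for 10.1% of all genes, and the day-7 siRNA arrays held it for 4 (control, 11.4% of all genes) and 6 (G0s2, 11.1%). ATRA+DEN at day 7 held the highest level of 9 of 27 (6.55% of all genes) and ATRA at day 7 of 8 (6.68%). Slide 4 thus carried both the arrays where the set was highest and the siRNA arrays where it was lowest.

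**Figure D2:**
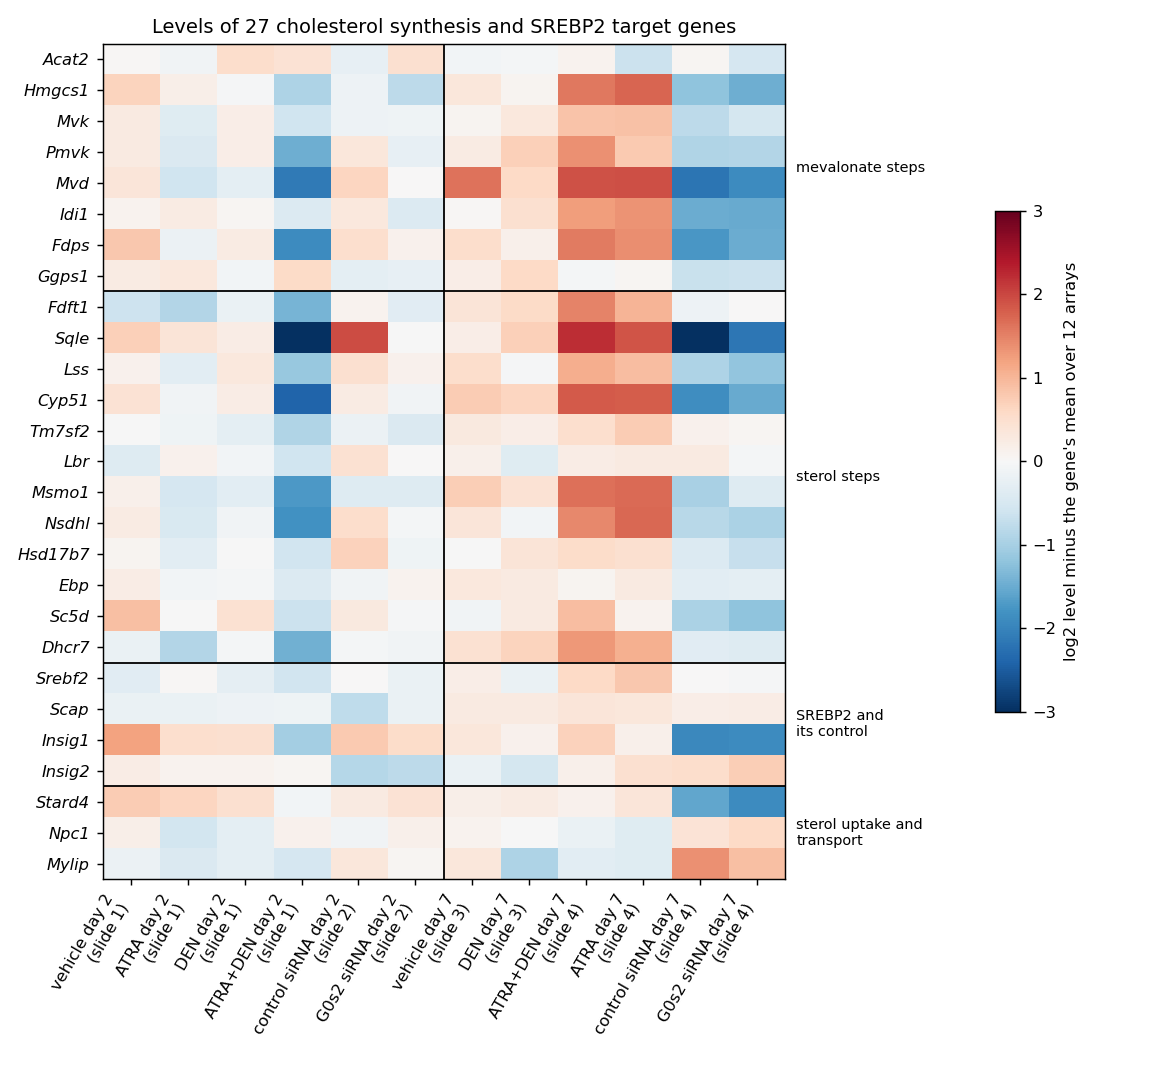
Log2 level of each of the 27 tested genes minus its own mean over 12 arrays (red above, blue below), by role (rows) and by array (columns, with the slide in brackets). Most enzymes are blue in ATRA+DEN at day 2 and in the siRNA arrays of day 7 and red in ATRA and ATRA+DEN at day 7, whereas Npc1 and Mylip are above their means in the siRNA arrays of day 7 and below them in ATRA and ATRA+DEN of that day.

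Among the mevalonate steps, Hmgcs1, the cytosolic synthase that builds HMG-CoA, was at 5.88 in vehicle, 5.39 in ATRA, 5.17 in DEN, 4.29 in ATRA+DEN, 5.07 in control siRNA and 4.42 in G0s2 siRNA at day 2. By day 7 Hmgcs1 was at 5.54 in vehicle, 6.96 in ATRA, 5.31 in DEN, 6.79 in ATRA+DEN, 4.00 in control siRNA and 3.74 in G0s2 siRNA. Its highest levels were those of ATRA and ATRA+DEN at day 7 and its lowest those of the siRNA arrays of the same day, a 9.32-fold range. Mvd, the decarboxylase that makes isopentenyl diphosphate, was at 1.61 in vehicle, 0.64 in ATRA, 0.95 in DEN, -0.89 in ATRA+DEN, 1.88 in control siRNA and 1.24 in G0s2 siRNA at day 2. By day 7 Mvd was at 2.87 in vehicle, 3.16 in ATRA, 1.83 in DEN, 3.15 in ATRA+DEN, -0.95 in control siRNA and -0.66 in G0s2 siRNA. Mvd had the widest range of the mevalonate steps, 17.2-fold, and 3 arrays below 0, ATRA+DEN at day 2 and both siRNA arrays of day 7. Fdps, which makes farnesyl diphosphate, was at 6.20 in vehicle, 5.23 in ATRA, 5.63 in DEN, 3.50 in ATRA+DEN, 5.89 in control siRNA and 5.52 in G0s2 siRNA at day 2. By day 7 Fdps was at 5.93 in vehicle, 6.80 in ATRA, 5.55 in DEN, 6.96 in ATRA+DEN, 3.65 in control siRNA and 3.90 in G0s2 siRNA. The same 3 arrays were lowest for Fdps, with a gap of more than 1 log2 unit to the next array, ATRA of day 2.

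The other mevalonate genes showed the pattern to different degrees. Idi1, the isopentenyl diphosphate isomerase, ran from 2.57 to 5.44, with both siRNA arrays of day 7 lowest and both ATRA arrays of that day highest. Pmvk, phosphomevalonate kinase, ran from 3.73 in ATRA+DEN of day 2 to 6.58 in ATRA+DEN of day 7, and Mvk, mevalonate kinase, from 2.96 to 4.61. Acat2, the cytosolic thiolase of the opening step, did not follow them: its range was 5.23 to 6.41, with its lowest level in ATRA of day 7 and its highest in DEN of day 2. Ggps1, which leads off to geranylgeranyl diphosphate and away from sterols, ran from -0.10 to 1.16 and was high in ATRA+DEN of day 2 (1.14).

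Among the sterol steps, Sqle, squalene epoxidase, a rate-controlling enzyme of the pathway, was at 3.47 in vehicle, 3.13 in ATRA, 2.98 in DEN, -0.41 in ATRA+DEN, 4.70 in control siRNA and 2.73 in G0s2 siRNA at day 2. By day 7 Sqle was at 2.94 in vehicle, 4.64 in ATRA, 3.46 in DEN, 4.96 in ATRA+DEN, -0.25 in control siRNA and 0.57 in G0s2 siRNA. Its range of 5.37 (41.4-fold) was the widest of the set and wider than that of 99.2% of all genes tested. Cyp51, the lanosterol demethylase, was at -0.04 in vehicle, -0.57 in ATRA, -0.26 in DEN, -2.87 in ATRA+DEN, -0.23 in control siRNA and -0.59 in G0s2 siRNA at day 2. By day 7 Cyp51 was at 0.29 in vehicle, 1.35 in ATRA, 0.16 in DEN, 1.37 in ATRA+DEN, -2.35 in control siRNA and -1.98 in G0s2 siRNA. Cyp51 again had ATRA+DEN of day 2 and the siRNA arrays of day 7 apart from the other 9, which lay between -0.59 and 1.37. Msmo1, the methylsterol monooxygenase, was at 5.08 in vehicle, 4.43 in ATRA, 4.62 in DEN, 3.20 in ATRA+DEN, 4.54 in control siRNA and 4.53 in G0s2 siRNA at day 2. By day 7 Msmo1 was at 5.66 in vehicle, 6.64 in ATRA, 5.37 in DEN, 6.57 in ATRA+DEN, 3.95 in control siRNA and 4.54 in G0s2 siRNA. For Msmo1 the siRNA arrays of day 7 were less far down, and G0s2 siRNA at day 7 was at the level of both day-2 siRNA arrays. Nsdhl, a dehydrogenase that works with Msmo1 on the sterol methyl groups, was at 0.99 in vehicle, 0.28 in ATRA, 0.65 in DEN, -1.08 in ATRA+DEN, 1.27 in control siRNA and 0.69 in G0s2 siRNA at day 2. By day 7 Nsdhl was at 1.12 in vehicle, 2.46 in ATRA, 0.66 in DEN, 2.18 in ATRA+DEN, -0.08 in control siRNA and -0.20 in G0s2 siRNA. Nsdhl, like Msmo1, was highest in ATRA and ATRA+DEN of day 7 and lowest in ATRA+DEN of day 2.

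The remaining sterol genes ran narrower. Fdft1, squalene synthase, ran from 1.46 to 4.34, Dhcr7, the reductase of the closing step, from 0.45 to 3.18, Lss, lanosterol synthase, from -0.21 to 2.05, and Sc5d, the sterol desaturase, from 3.48 to 5.61. All 4 were highest in ATRA+DEN of day 7. Tm7sf2, a sterol reductase, ran from 4.88 to 6.55, and Hsd17b7, a ketoreductase of the demethylation complex, from 1.00 to 2.38. Lbr, which joins sterol reductase activity to anchoring of chromatin at the nuclear envelope, ran from -0.61 to 0.44. Ebp, the sterol isomerase, had the narrowest range of all 27, from 7.39 to 8.11.

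Of the controls, Srebf2, the gene of SREBP2 itself, was at -0.51 in vehicle, -0.13 in ATRA, -0.45 in DEN, -0.74 in ATRA+DEN, -0.16 in control siRNA and -0.36 in G0s2 siRNA at day 2. By day 7 Srebf2 was at 0.03 in vehicle, 0.63 in ATRA, -0.35 in DEN, 0.43 in ATRA+DEN, -0.16 in control siRNA and -0.20 in G0s2 siRNA. Its range was 1.37, near the middle of all genes, with the highest levels in ATRA and ATRA+DEN of day 7 and the lowest in ATRA+DEN of day 2. A second Srebf2 probe, dimmer but also well above background on every array, did not share these extremes. It was highest in control and G0s2 siRNA of day 7 (-1.62 and -2.03) and lowest in ATRA of day 2 (-3.33, against -2.72 in vehicle). Insig1, which retains Scap and SREBP2 and is itself an SREBP target, was at 3.72 in vehicle, 3.01 in ATRA, 3.00 in DEN, 1.49 in ATRA+DEN, 3.29 in control siRNA and 3.05 in G0s2 siRNA at day 2. By day 7 Insig1 was at 2.86 in vehicle, 2.66 in ATRA, 2.64 in DEN, 3.21 in ATRA+DEN, 0.59 in control siRNA and 0.62 in G0s2 siRNA. Insig1 shared the low arrays of the enzymes but was highest in vehicle of day 2 and lower in ATRA of day 7 than in vehicle of that day. Scap, the escort, ran only from 4.47 to 5.6. Insig2, the second retention protein, went the other way in the day-7 siRNA arrays, where it had its highest levels, 6.23 and 6.44, against 4.85 and 4.93 in the day-2 siRNA arrays. A second Insig2 probe, also well above background on every array, gave 3.90 and 3.85 against 3.84 and 4.09 in those arrays, so its levels there did not share this difference.

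Among uptake and transport genes, Stard4, a soluble sterol carrier, was lowest in the siRNA arrays of day 7 (1.65 and 1.32) and between 3.13 and 3.98 in the other 10. Npc1, which lets cholesterol out of lysosomes, ran from 1.12 to 2.28 and was highest in the siRNA arrays of day 7 (2.08 and 2.28). Mylip, a ubiquitin ligase that sends lipoprotein receptors to degradation and is switched on by the sterol sensor LXR, was likewise highest there (1.07 and 0.61) and lay between -1.22 and 0.03 in the other 10. Npc1l1 had processed levels of -5.32 to -2.86, not well above background on 11 of 12 arrays. In bulk tissue, fewer cells of a type and less RNA per cell cannot be told apart.

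**Figure D3:**
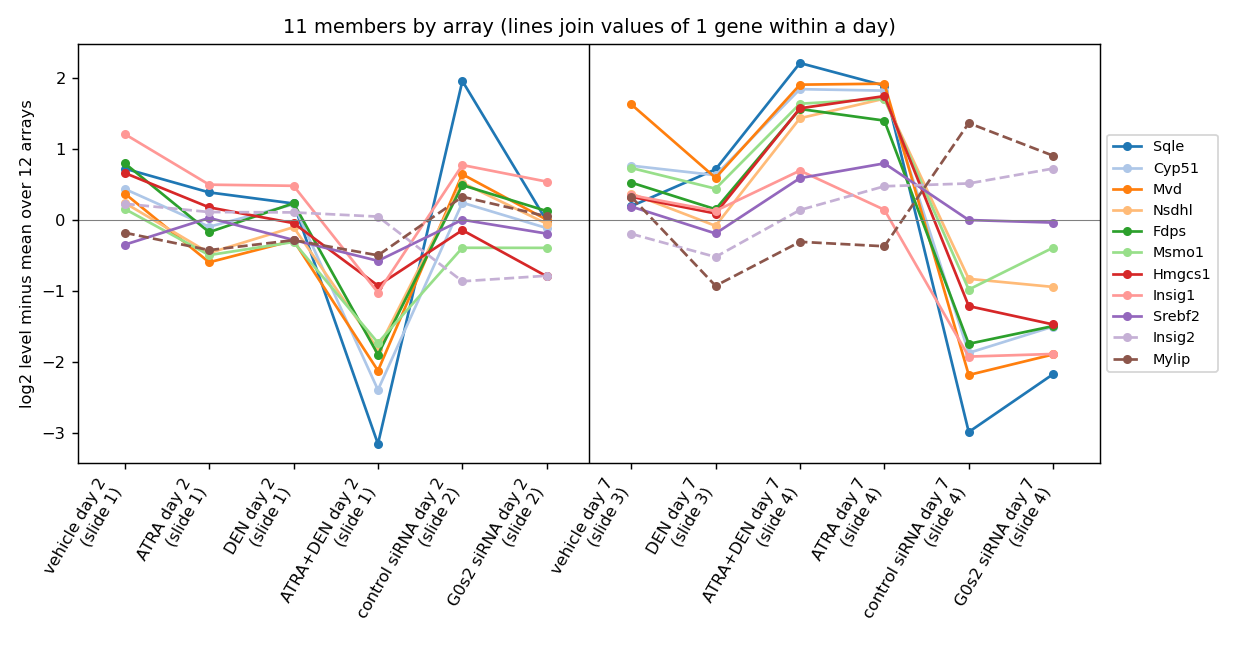
Log2 level minus the gene's mean over 12 arrays for 11 genes in every array (horizontal axis, with the slide in brackets), each line joining 1 gene within a day. The 7 enzymes and Insig1 dip together in ATRA+DEN of day 2 and in the siRNA arrays of day 7, while Insig2 and Mylip (dashed) lie above their means in the latter.

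DEN was asked about in 4 pairs of arrays, without and with ATRA at each day. Over these pairs the set lay lower with DEN, by a median of -0.24 (log2), with 19 of 27 genes lower, beside a median of -0.02 and 54.3% lower over all genes tested. Of the 27 genes none passed an adjusted p of 0.05 in limma, as none did over all genes (0% called). At an unadjusted p under 0.05 there were 4, Mvd, Nsdhl, Hmgcs1 and Tm7sf2, against 12.2% of all genes. Mvd differed by -0.81 (SE 0.27, adjusted p = 0.353), lower in 4 of 4 pairs, with pair differences of -0.66, -1.53, -1.04 and -0.01. Nsdhl differed by -0.61 (SE 0.21, adjusted p = 0.354) and Hmgcs1 by -0.55 (SE 0.18, adjusted p = 0.346), each lower in 4 of 4 pairs. In all, 7 of 27 genes were lower in every pair, against 12.5% of all genes, and 2 were higher in every pair (9.09% of all genes). These 2 were Acat2 (0.45, SE 0.23, adjusted p = 0.478) and Scap (0.03, SE 0.11, adjusted p = 0.932). By role, medians were -0.06 for the mevalonate steps, -0.25 for the sterol steps, -0.25 for SREBP2 and its control and -0.29 for uptake and transport.

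The pairs differed in how far the set lay down. DEN against vehicle at day 2 gave a median of -0.22, with 20 of 27 genes lower and none at least 2-fold apart (2.92% of all genes were 2-fold higher and 3.91% 2-fold lower). ATRA+DEN against ATRA at day 2 gave -0.64, with 23 lower, 9 of them at least 2-fold (2.67% of all genes), and none 2-fold higher (3.12%). The largest of these differences was Sqle with -3.55, followed by Cyp51 with -2.30. At day 7 the median was -0.09 for DEN against vehicle, with Mvd and Mylip (-1.04 and -1.26) at least 2-fold lower (5.85% of all genes), and 0.02 for ATRA+DEN against ATRA, with none 2-fold apart (4.06% higher, 3.72% lower). Without the pair of ATRA+DEN and ATRA at day 2, the median over the other 3 pairs was -0.11. If the day-7 arrays are named by the treatment field, the median over the 4 pairs turned to 0.07, with 12 of 27 lower, and Nsdhl turned to 0.29 and Hmgcs1 to 0.27. Red cell markers differed in the same comparison, none past the threshold, with 3 of 4 tested markers lower in every pair and 1 higher in every pair (median -1.21). Their summed level was lower with DEN than with vehicle, 47.8 against 145.4 at day 2 and 21.6 against 36.4 at day 7. With ATRA present it was higher with DEN, 52.8 against 45.2 at day 2 and 90.2 against 24.4 at day 7. Vehicle of day 2 held 6 of 10 pancreas, muscle and fat markers above background (summed level 22.2, against 1.78 to 3.26 in the other 11 arrays). The part of these cells in the DEN differences was not tested.

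ATRA was compared in 4 pairs as well, and its difference went opposite ways at the 2 times. At day 2 the set lay lower with ATRA: by a median of -0.40 against vehicle, with 22 of 27 genes lower and none at least 2-fold apart (3.29% of all genes higher, 3.61% lower), and by -0.81 for ATRA+DEN against DEN, with 24 lower, 12 of them at least 2-fold (2.71% of all genes), and none 2-fold higher (4.07%). At day 7 it lay higher with ATRA: by 0.50 against vehicle, with 21 higher, 5 of them at least 2-fold (4.31% of all genes), and none 2-fold lower (3.69%), and by 0.66 for ATRA+DEN against DEN, with 23 higher, 8 of them at least 2-fold (4.75%), and none 2-fold lower (5.35%). Medians over all genes in these 4 pairs were between -0.08 and 0.03. A total of 16 of the 27 genes were lower in both pairs of day 2 and higher in both pairs of day 7, as were 11% of all genes. They were Hmgcs1, Mvk, Pmvk, Mvd and Fdps of the mevalonate steps, Fdft1, Sqle, Lss, Cyp51, Tm7sf2, Msmo1, Nsdhl, Hsd17b7, Sc5d and Dhcr7 of the sterol steps, and Insig2. Another probe, above background on every array, did not share the fall of day 2 for Tm7sf2 (3.19 in vehicle, 3.26 in ATRA) or Hsd17b7 (-2.13 and -2.08). Nor did another Insig2 probe, at 5.11 in DEN and 5.13 in ATRA+DEN of day 2. Fdps gave -0.97 and -2.13 at day 2 and 0.87 and 1.41 at day 7. Sqle gave -0.34 and -3.39 at day 2 and 1.70 and 1.5 at day 7.

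**Figure D4:**
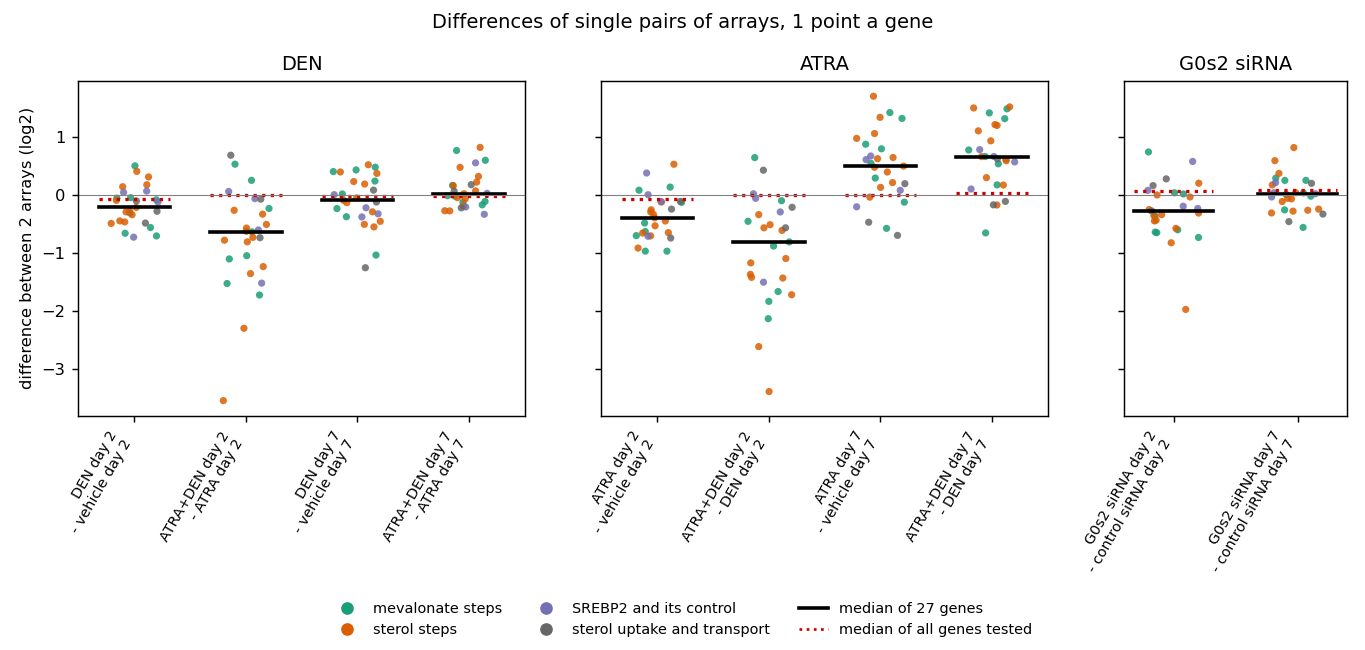
Difference between 2 arrays (log2, vertical axis) for each of the 27 genes (points, coloured by role) in the DEN, ATRA and G0s2 siRNA pairs named below the axis. Black bars are the median of the 27 genes and dotted red bars that of all genes tested. For ATRA the black bars lie at -0.40 and -0.81 at day 2 and at 0.50 and 0.66 at day 7, and for DEN the lowest bar, -0.64, is that of ATRA+DEN against ATRA at day 2.

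Averaged over all 4 pairs these differences left an ATRA median of -0.10, with 17 of 27 genes lower and none past an adjusted p of 0.05 in limma (0% of all genes, and at an unadjusted p under 0.05 also 0 of 27, against 5.74% of all genes). Without the pair of ATRA+DEN and DEN at day 2 the median was 0.22, with 8 of 27 lower, and without that of ATRA and vehicle at day 2 it was 0.02. The same sign in all 4 pairs was seen for Ebp (-0.21, SE 0.11, adjusted p = 0.880), 1 of 27 lower in every pair against 7.79% of all genes, and for Scap (0.05, SE 0.10, adjusted p = 0.955), 1 of 27 higher in every pair against 6.17%. The day-2 pairs alone, with slide as a block, gave a median of -0.68 with 23 of 27 lower and none past the threshold. The day-7 pairs cross slides, ATRA and ATRA+DEN lying on slide 4 and vehicle and DEN on slide 3, so at that day ATRA and slide cannot be told apart.

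The change of the ATRA difference from day 2 to day 7 was fitted as a term of its own, a comparison added after the data were seen. Its median over the 27 genes was 1.29, with 24 higher, beside 0.05 over all genes. None of the 27 passed an adjusted p of 0.05 in limma (0% of all genes), while 18 of 27 had an unadjusted p under 0.05, against 9.54% of all genes. Both pairs gave a higher value for 22 of 27 genes (32.5% of all genes). Sqle differed by 3.46 (SE 1.1, adjusted p = 0.507), Cyp51 by 2.71 (SE 0.76, adjusted p = 0.493) and Fdps by 2.70 (SE 0.49, adjusted p = 0.472), each higher in 2 of 2 pairs. Ggps1 differed by -0.75 (SE 0.33, adjusted p = 0.554), lower in 2 of 2 pairs, and was the 1 gene of 27 to do so (24.6% of all genes). By role the medians were 1.59 for the mevalonate steps, 1.57 for the sterol steps, 0.70 for SREBP2 and its control and 0.19 for uptake and transport. Named by the treatment field, the ATRA pairs of day 7 had medians of -0.09 and -0.02, and the median of the term was 0.59, with 6 genes lower. Cycling-cell markers were higher with ATRA in 5 of 5 tested members (median 1.27), 3 of them in every pair (6.17% of all genes). Their list had a summed level of 1.40 to 2.30 in the 4 ATRA arrays and 0.43 to 1.37 in the 4 matched arrays. Top2a was not above background on any of these 8. Ccnb1, Cdk1 and Plk1 were not above it in vehicle and DEN of day 2, nor Ccnb1 and Cdk1 in DEN of day 7. The marker differences thus rest in part on values near background. The part of cycling cells in the ATRA differences was not tested.

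ATRA and DEN together were asked about through the difference that DEN made with ATRA minus that without it. Over both days the median of this term was -0.25, with 19 of 27 genes lower, beside 0.05 over all genes, and none passed in limma (0% of all genes, and 0 of 27 at an unadjusted p under 0.05, against 3.67%). In all, 8 of 27 genes were lower at both days (18.1% of all genes) and 4 were higher at both (28.4%). Sqle gave -1.63 (SE 1.43, adjusted p = 1.000), made up of -3.06 at day 2 and -0.20 at day 7. Idi1 gave -0.57 (SE 0.33) with -0.59 and -0.54, and Stard4 -0.38 (SE 0.31). Npc1 (0.73, SE 0.30), Mylip (0.67, SE 0.46) and Acat2 (0.39, SE 0.28) were higher at both days. At day 2 alone, on 1 slide, the median was -0.59, with 21 lower. Cell markers, none past the threshold, differed in this term. Higher values were seen for 9 of 9 Kupffer cell markers (8 at both days, median 0.23) and 8 of 8 sinusoidal endothelium markers (4 at both days, median 0.40). The same held for 6 of 8 stellate cell markers (5 higher and 1 lower at both days, median 0.45). Of 4 red cell markers, 3 were higher and 1 lower at both days (median 0.95). All 5 tested cycling-cell markers were higher at both days (median 1.15), but Ccnb1, Cdk1 and Plk1 were not above background in vehicle and DEN of day 2. Summed levels in the 8 arrays were 69.1 to 92.6 for Kupffer cells and 58.0 to 148.2 for endothelium, and the part of these cells was not tested. Against vehicle of the same day, ATRA+DEN gave a median of -0.87 at day 2, with 12 of 27 genes at least 2-fold lower (3.55% of all genes) and none 2-fold higher (4.29%), led by Sqle (-3.88), Cyp51 (-2.83), Fdps (-2.70) and Mvd (-2.50). At day 7 the median was 0.55, with 9 genes at least 2-fold higher (5.88% of all genes) and none 2-fold lower (5.22%), led by Sqle (2.02). ATRA+DEN of day 7 lies on slide 4 and vehicle of day 7 on slide 3, so treatment and slide cannot be told apart there. The ATRA+DEN and control arrays of these comparisons are those of the DEN and ATRA pairs, so the values are not independent of them.

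Lowering G0s2 was compared in 2 pairs. Over both, the set had a median of -0.12, with 18 of 27 genes lower, beside 0.07 over all genes, and none passed in limma (0% of all genes, 1 of 27 at an unadjusted p under 0.05, against 6.83%). That gene was Hsd17b7 (-0.55, SE 0.21, adjusted p = 0.688), whose 3 probes did not all share this sign. Hmgcs1 gave -0.46 (SE 0.26, adjusted p = 0.70) and Idi1 -0.38 (SE 0.29, adjusted p = 0.755), while Scap (0.30, SE 0.16), Npc1 (0.24, SE 0.27) and Insig2 (0.14, SE 0.14) were higher in both pairs. Insig2 turned to -0.023 with quantile normalization and in the authors' deposited table alike. In all, 11 of 27 were lower in both pairs (19.8% of all genes) and 6 higher in both (37.8%). At day 2 the median was -0.28, with Sqle (-1.97) the 1 gene at least 2-fold lower (2.65% of all genes) and none 2-fold higher (2.69%). At day 7 it was 0.01, with none 2-fold apart (4.52% of all genes higher, 3.99% lower), and without the day-2 pair the limma median was likewise 0.01. All 9 Kupffer cell markers were lower with G0s2 siRNA in both pairs (median -0.65), with summed levels (control, then G0s2 siRNA) of 268.9 and 179.9 at day 2 and 95.9 and 58.4 at day 7, and their part was not tested.

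The low levels in the siRNA arrays of day 7 were common to both siRNAs. Against ATRA and ATRA+DEN of the same slide, which differ from them in treatment, the set had medians of -1.41 and -1.66 with control siRNA and -1.40 and -1.69 with G0s2 siRNA. In these comparisons, added after the data were seen, 16, 16, 17 and 17 of 27 genes were at least 2-fold lower, against 9.02%, 8.02%, 10.2% and 8.67% of all genes, and Mylip was the 1 gene at least 2-fold higher in each (5.75%, 4.75%, 6.78% and 5.11% of all genes). From day 2 to day 7 the median difference of the set was -0.63 with control siRNA, with 13 of 27 genes at least 2-fold lower (16.2% of all genes) and 2, Insig2 and Mylip, 2-fold higher (8.61%). With G0s2 siRNA it was -0.56, with 9 at least 2-fold lower (16.9%) and 1, Insig2, 2-fold higher (8.86%). No array of day 7 on slide 4 holds vehicle, so siRNA injection cannot be told apart from what else differs between these arrays. Red cell markers had summed levels of 145.5 and 166.5 in the day-7 siRNA arrays, against 90.2 in ATRA+DEN and 24.4 in ATRA of the slide, and their part was not tested.

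Day 7 was compared with day 2 over 6 pairs of the same treatment, each of which also crosses slides, so day and slide cannot be told apart. The set had a median of 0.26, with 21 of 27 genes higher, beside 0.08 over all genes. In limma 2 of 27 passed, against 45.8% of all genes, and both were higher at day 7. Scap rose by 0.55 (SE 0.11, adjusted p = 0.0066) and Tm7sf2 by 0.64 (SE 0.17, adjusted p = 0.018), each in 6 of 6 pairs. With quantile normalization neither passed (Scap 0.30, Tm7sf2 0.39). No gene of the set was lower in every pair (19.1% of all genes), and those 2 were the ones higher in every pair (23.7%). The siRNA pairs went against the others: the median was 0.65 over the 4 pairs without siRNA, with 23 of 27 higher, and -0.51 over the 2 siRNA pairs, with 20 lower. Single pairs without siRNA ran from -0.04 for vehicle to 1.58 for ATRA+DEN, in which 18 of 27 genes were at least 2-fold higher (8.5% of all genes). Without the ATRA+DEN pair the median over all others was -0.01, with 14 of 27 lower. Without the ATRA pair 1 gene passed, Scap, and without the control siRNA pair 4 did.

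Neighbouring pathways were set beside these genes as lists of known members. SREBP1 and lipogenesis, the fatty acid side of the SREBP family, came nearest. Its 16 genes had medians of -0.70 in ATRA+DEN of day 2 and of -0.88 and -1.07 in the siRNA arrays of day 7 relative to their own means, but of only 0.15 and 0.26 in ATRA and ATRA+DEN of day 7. Averaged over the 4 DEN pairs all 16 were lower (median -0.40, 0 passing), beside 54.3% of all genes. Only 4 of the 16 were lower in every pair (12.5% of all genes). They include Thrsp, a lipogenic regulator (-1.29, SE 0.34, adjusted p = 0.283), and the elongase Elovl6 (-1.14, SE 0.29, adjusted p = 0.277). For the change of the ATRA difference with day the median of the 16 was 0.84, with 15 of 16 higher and 0 passing. The median of the 9 genes of SREBP activation and sterol-regulated degradation, which include the site proteases Mbtps1 and Mbtps2, was between -0.20 and 0.19 in every array. The median of the 12 isoprenoid branch genes was between -0.13 and 0.12, and that of the 9 genes of LXR and sterol export between -0.20 and 0.25. Single genes ranged wider than these medians: Tmem97, named here after its values were seen, was at 3.66 in ATRA+DEN of day 2 and at 5.03 in ATRA+DEN of day 7.

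**Figure D5:**
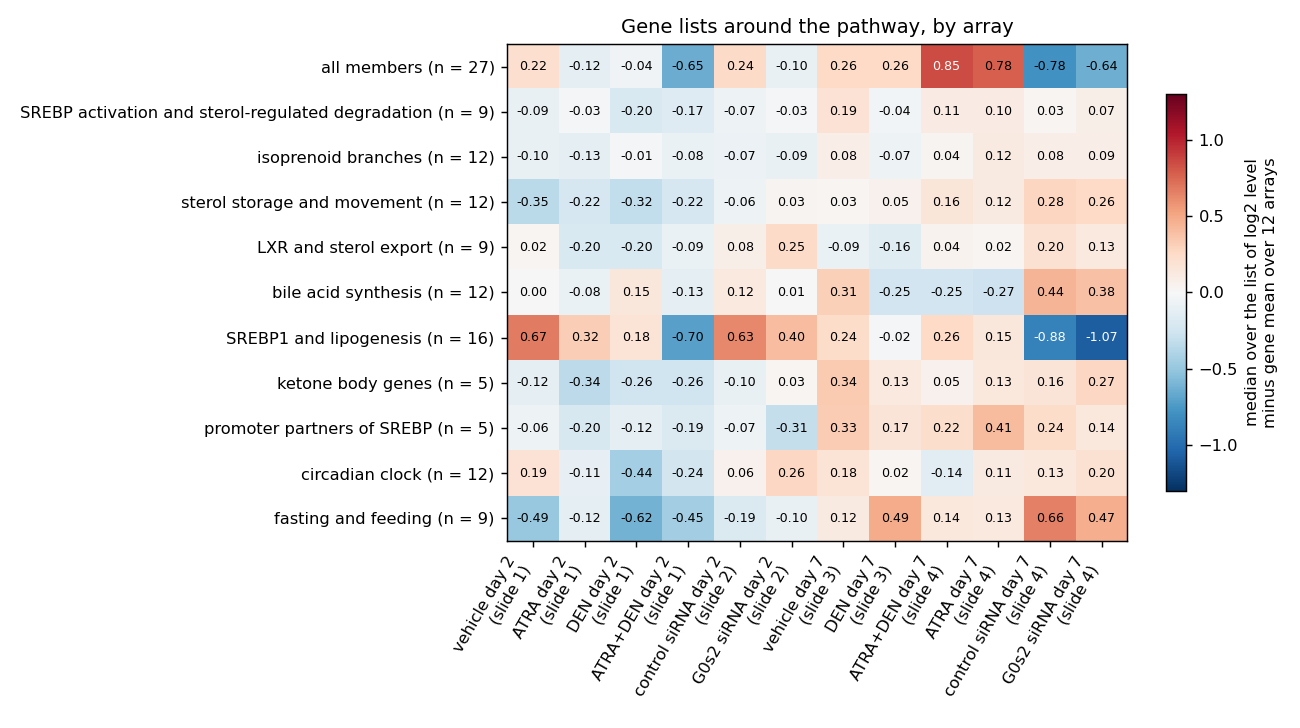
Median over each gene list of the log2 level minus the gene's mean over 12 arrays (number and colour), by list (rows, with the number of genes measured) and array (columns, with the slide in brackets). The 27 genes and the SREBP1 and lipogenesis list are low in ATRA+DEN of day 2 and in the siRNA arrays of day 7, and the 27 genes are high in ATRA and ATRA+DEN of day 7.

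Of the other sterol lists, none had a member past the threshold for DEN, ATRA, their interaction or G0s2 siRNA. Storage and movement genes had a DEN median of -0.01 over 12 genes, with 0.32 (SE 0.12, adjusted p = 0.374) for Soat2, which esterifies cholesterol. The 9 genes of LXR and sterol export had a DEN median of 0.02, with 6 higher and 3 lower. In every pair 2 of them were higher (9.09% of all genes) and 1 lower (12.5%). Those higher were the sterol exporters Abcg5, by 0.46 (SE 0.16, adjusted p = 0.358), and Abcg8, by 0.54 (SE 0.21, adjusted p = 0.395). The gene lower in 4 of 4 pairs was Abca1. Of 12 bile acid synthesis genes 10 were lower with ATRA (median -0.11), among them Cyp7a1, the rate-limiting enzyme (-1.12, SE 0.27, adjusted p = 0.745), and Cyp8b1 (-1.27, SE 0.27, adjusted p = 0.745). Cyp7b1, of the alternative bile acid route, was lower with DEN (-0.76, SE 0.21, adjusted p = 0.294) and higher with G0s2 siRNA (1.58, SE 0.29, adjusted p = 0.596). With day, genes passed in limma in every neighbouring list but SREBP1 and lipogenesis (0 of 16, median -0.49), beside 24.6% of all genes higher and 21.3% lower. Higher at day 7 were 3 of 9 for SREBP activation, 2 of 9 for LXR and sterol export and 2 of 5 ketone body genes. Storage and movement had 5 higher and 1 lower of 12, bile acid synthesis 4 and 3 of 12, and the isoprenoid branches 4 and 2 of 12. Nfya and Nfyb, subunits of the CCAAT-binding factor, rose with day by 0.89 (SE 0.16, adjusted p = 0.0050) and 0.64 (SE 0.13, adjusted p = 0.0070), and 4 of the 5 promoter partners of SREBP passed.

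Lists that follow food and time of day were also measured, because mouse liver cholesterol synthesis is known to vary with both. The 9 fasting and feeding genes had medians of 0.66 and 0.47 in the siRNA arrays of day 7, 0.49 in DEN of day 7 and 0.12 to 0.14 in the other arrays of day 7. All 6 arrays of day 2 had medians below 0, from -0.62 in DEN to -0.10 in G0s2 siRNA, with -0.45 in ATRA+DEN, and 4 of the 9 genes passed as higher at day 7 (24.6% of all genes). The 12 circadian clock genes had medians between -0.44 (DEN of day 2) and 0.26 (G0s2 siRNA of day 2). Their median was -0.24 in ATRA+DEN of day 2 and 0.13 and 0.20 in the siRNA arrays of day 7. For day, 3 of 12 passed as higher and 1 as lower at day 7 (24.6% and 21.3% of all genes). Single clock genes moved further and in opposite ways, which a list median can hide. From vehicle to DEN of day 2, Per1 went from 1.63 to 0.08, Per2 from 0.39 to -0.71 and Nr1d2 from 0.21 to -1.27. Arntl rose from 1.41 to 1.98 between the same arrays. In ATRA+DEN of day 2, Per1 was at -0.0016, Per2 at -1.41, Nr1d2 at 0.31 and Arntl at 1.75. Igfbp1, a fasting-induced secreted protein, was higher with DEN by 1.26 (SE 0.30, adjusted p = 0.267) and with ATRA by 0.97 (SE 0.22, adjusted p = 0.745). Most of its list went the other way. With DEN 6 of the 9 fasting and feeding genes were lower (median -0.05, 54.3% of all genes lower). With ATRA 6 of 9 were lower as well (median -0.18, 52.3% of all genes lower). The part of feeding or of the hour in the levels of the 27 genes was not tested.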

How the data were processed

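Each deposited array file holds the intensities that Agilent Feature Extraction wrote after background subtraction and detrending, per the file headers. These headers give its version as 10.7.1.1, whereas the submitters' processing notes name 9.5.1.1. The authors' normalized linear intensities were deposited as a table of the series. Between arrays of a day its sorted values differed by at most 0.0831% (day 2) and 0.0530% (day 7), so it was used only as an alternative within days. Spots flagged as outliers were left out, spots of a probe were averaged, and log2 levels minus the 75th percentile of the deposited intensities were computed for 55681 probes. Probes were named by accession (27229), symbol (3586), synonym (565) or the array's own name (24301) through a RefSeq table. A gene was its brightest probe on average, tested if well above background on at least 2 of 12 arrays. Other probes of a gene above background on every array existed for 9 genes of the set, and their sign matched for 6 of 9 for DEN, 4 of 9 for ATRA, 6 of 9 for G0s2 siRNA and 7 of 9 for day.

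Effects were fitted with limma 3.58.1 (R 4.3.3). P-values were adjusted by Benjamini-Hochberg across the 21186 genes, with a threshold of 0.05. DEN and G0s2 siRNA effects came from all 12 arrays with the pair as a block, ATRA from 8 arrays with the pair as a block, their interaction with slide as a block, and day with treatment as a block. Fits other than that of the ATRA by day term were also run on simulated data with known changes. The simulation held no slide effects, so it says nothing on comparisons that cross slides. All 28 genes were described. Values in every array were given for the 8 widest ranges and for Srebf2, Insig1, Sqle and Mvd. Full statistics went to genes past the threshold or, if none, to up to 3 rises and 3 falls whose sign was shared by every pair, and to up to 2 such genes per neighbouring list. The genes and lists were chosen with earlier results of these data known. The ATRA by day term and the comparisons of day-7 siRNA arrays with ATRA arrays, and the split of day pairs by siRNA, were chosen after seeing the data. Alternatives were other normalizations, background corrections, filters, probe rules, day-7 labels and pairs left out. The number of arrays limits the precision.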

Additional observations from a re-analysis of the deposited data

Results flagged for a closer look

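The ATRA difference lay on opposite sides of 0 at day 2 and at day 7 in both pairs of each day. The mean of the medians of the 2 pairs of a day was -0.60 (log2) at day 2 and 0.58 at day 7 for the 27 genes. It was -0.70 and 0.69 for the mevalonate steps, -0.85 and 0.68 for the sterol steps, and -0.12 and 0.48 for Srebf2, Scap, Insig1 and Insig2. The difference between days was tested gene by gene with limma, where 0 of 27 genes passed an adjusted p of 0.05 and 18 had an unadjusted p under 0.05. The day-7 pairs cross slides and the day-2 pairs do not. Named by the treatment field, the day-7 pairs had medians of -0.09 and -0.02, on the same side of 0 as those of day 2.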

How the results depend on the processing

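Naming the day-7 arrays by the treatment field turned the DEN median to 0.071 (12 genes lower), Nsdhl to 0.29 and Hmgcs1 to 0.27 for DEN, Scap to -0.00011 for ATRA and Acat2 to -0.38 for the interaction, and it moved the ATRA by day median to 0.59 (6 lower). Quantile normalization turned Insig2 with G0s2 siRNA to -0.023 (-0.023 in the deposited series table too), DEN against vehicle at day 7 to 0.013, G0s2 siRNA at day 7 to -0.11, and the set's medians in ATRA and DEN of day 2 to 0.0024 and 0.11 (0.078 for DEN with the mean over probes). For day it left 10 genes lower and took Scap (0.30) and Tm7sf2 (0.39) below the threshold. The number past the threshold for day was 4 with normexp and 4 with the mean over probes. Over all genes, normexp gave 9 past the threshold for DEN, 4 for G0s2 siRNA and 4 for ATRA by day, against 0. Leaving out each pair in turn gave ATRA medians of -0.26 to 0.22 (8 to 20 genes lower), G0s2 siRNA medians of -0.28 to 0.0076, and for day medians of -0.014 to 0.44, 5 to 14 genes lower and 1 to 4 past the threshold, with Tm7sf2 (0.60) lost without the ATRA pair. The causes were not tested. Of the other values, 151 summary and 317 single-gene or single-array values kept direction and side of the threshold. No paired analysis was possible because each group holds 1 array, other than the blocks of pairs already fitted.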
